A study of Mus musculus with 12 samples.

Results

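The genes described here are 10 angiogenic ligands and hypoxia factors, Vegfa, Vegfb, Vegfc, Pgf, Apln, Angpt1, Angpt2, Hif1a, Epas1 and Egln3. They were chosen by symbol and function, with earlier results of these data known. All 10 were found among the 28116 gene symbols of the deposited table. RNA had been measured by sequencing in tibialis anterior muscle of 4-month-old C57BL/10ScSn-Dmdmdx/J (mdx) mice, which lack functional dystrophin and serve as a model of Duchenne muscular dystrophy. Every muscle had received cardiotoxin, a snake venom toxin that destroys fibres and starts regeneration. It was combined with anti-miR-106b, which blocks the microRNA miR-106b, or with anti-miR-Scrambled, the control oligonucleotide. Muscles were taken 3 or 7 days later, so that there are 4 groups of 3 animals, 1 for each inhibitor on each day. The series text once gives the later time as 5 days, whereas every sample label gives 7, which is used here. All groups therefore share the Dmd mutation and the injury, and no uninjured or dystrophin-positive muscle was analysed here. The comparisons ask how blocking miR-106b alters RNA levels in regenerating muscle.

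Growth of capillaries is driven by secreted ligands that act on receptors of endothelial cells. Vegfa, Vegfb and placental growth factor (Pgf) bind Flt1, Vegfa also binds Kdr, and Vegfc acts mainly through Flt4 on lymphatic endothelium. Angpt1 activates the receptor Tek and stabilises vessels, whereas Angpt2 can oppose it, and apelin (Apln) signals through Aplnr. Hypoxia-inducible factors are transcription factors whose alpha subunits, Hif1a and Epas1 (HIF-2 alpha), are hydroxylated and degraded when oxygen is present. Egln3 is one of the hydroxylases and is itself a known target of these factors. In skeletal muscle the fibres are a major source of Vegfa and Vegfb. The alpha subunits are controlled largely at the protein level, which RNA does not show.

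The microRNA and its matches in these genes are printed because the treatment acts on miR-106b-5p. Capitals mark the seed, bases 2 to 8, in the microRNA, which is encoded at chr5:138165787-138165807 on the minus strand (RefSeq, GRCm38.p6), within the gene Mcm7. In the target sites capitals mark the 7 bases complementary to the seed. The mouse microRNAs miR-17-5p, miR-20a-5p, miR-20b-5p, miR-93-5p, miR-106a-5p and miR-6383 have the same seed, so a match is not particular to miR-106b.
mmu-miR-106b-5p: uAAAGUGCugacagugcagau
Vegfa site: actcttcgaggaGCACTTTgggtccgg
Hif1a site: gtttggttttatGCACTTTgtcgctat
Epas1 site: cgtgttccaagaGCACTTTgtaactca
Egln3 site: tgcttcttattcGCACTTTatgtatgc
For each gene the longest 3′ UTR in GENCODE M21 (GRCm38) was searched on the sense strand for GCACTTT. It occurred once in 4 of the 10 genes, and in 11.8% of 21020 genes with an annotated 3′ UTR. The sites lie in the 3′ UTR at chr17:46018682-46018708 (Vegfa, minus strand), chr12:73946666-73946692 (Hif1a, plus strand), chr17:86832864-86832890 (Epas1, plus strand) and chr12:54180318-54180344 (Egln3, minus strand). Only the Egln3 site is followed by A, which makes the 8-base match GCACTTTA found in 3.50% of genes. The 3′ UTRs of Vegfb, Vegfc, Pgf, Apln, Angpt1 and Angpt2 held no 7-base match. The 3′ UTRs of the 4 genes with a match were 1643 to 2308 bases long, against a median of 961 over all genes.

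Levels are given in CPM, read counts divided by library sizes that the authors had scaled to make libraries comparable. The libraries held 28857739 to 42825246 reads, and 1 CPM rests on 28.1 to 46.9 reads. Mitochondrial reads made up 7.54 to 7.76% of a library in scrambled day 3, 4.80 to 4.83% in anti-miR-106b day 3 and 8.18 to 10.7% in the day 7 groups. The 10 most abundant genes took 16.5 to 18.0%, 11.8 to 12.1% and 21.9 to 23.5%, in the same order. Fibre markers were present in every library, with Ckm and 11 other genes of the mature fibre together at 52918 CPM or more. Scaling to total reads in place of the authors' sizes moved the median log2 fold change of all genes from 0.01 to 0.20 in the day 3 comparison of the arms. Between the days it moved the median to -0.41 in the scrambled arm and to -0.65 in the anti-miR-106b arm.

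To compare genes with each other, CPM was divided by the length of all annotated exons of the gene. On this scale of CPM per kilobase Vegfb was the highest in every group. Its place above Vegfa rests on the exon lengths, 1605 bases for Vegfb and 4285 for Vegfa. In CPM Vegfa was above Vegfb in every library. At day 3 in scrambled muscle Vegfb was at 42.4 ± 6.07, Vegfa at 22.7 ± 1.15, Epas1 at 14.7 ± 1.96, Egln3 at 14.2 ± 1.34 and Hif1a at 8.01 ± 0.0604 CPM per kilobase (SD, n = 3). The remaining ligands were far lower, with Angpt1 at 2.73 ± 0.260, Apln at 1.38 ± 0.118, Angpt2 at 0.830 ± 0.141, Vegfc at 0.815 ± 0.0673 and Pgf at 0.557 ± 0.152. In this order the neighbours Epas1 and Egln3 did not differ beyond their spread, nor did Angpt2 and Vegfc. With anti-miR-106b at day 3 the order was Vegfb (27.8 ± 2.75), Egln3 (15.7 ± 0.934), Vegfa (12.1 ± 0.378), Hif1a (10.1 ± 0.576), Epas1 (9.32 ± 0.555), Apln (3.15 ± 0.154), Angpt1 (1.78 ± 0.0782), Pgf (1.47 ± 0.0845), Angpt2 (1.38 ± 0.0398) and Vegfc (0.951 ± 0.0312). Here Hif1a and Epas1, and Pgf and Angpt2, lay within their spread. At day 7 the order of the means was the same in both arms: Vegfb, Vegfa, Epas1, Egln3, Hif1a, Angpt1, Apln, Vegfc, Angpt2 and Pgf, from 77.7 ± 13.8 to 0.386 ± 0.05004 in scrambled muscle. The smallest gene counts were those of Pgf, 25 to 202 reads per library, and Vegfc, 39 to 112 reads.

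**Figure D1:**
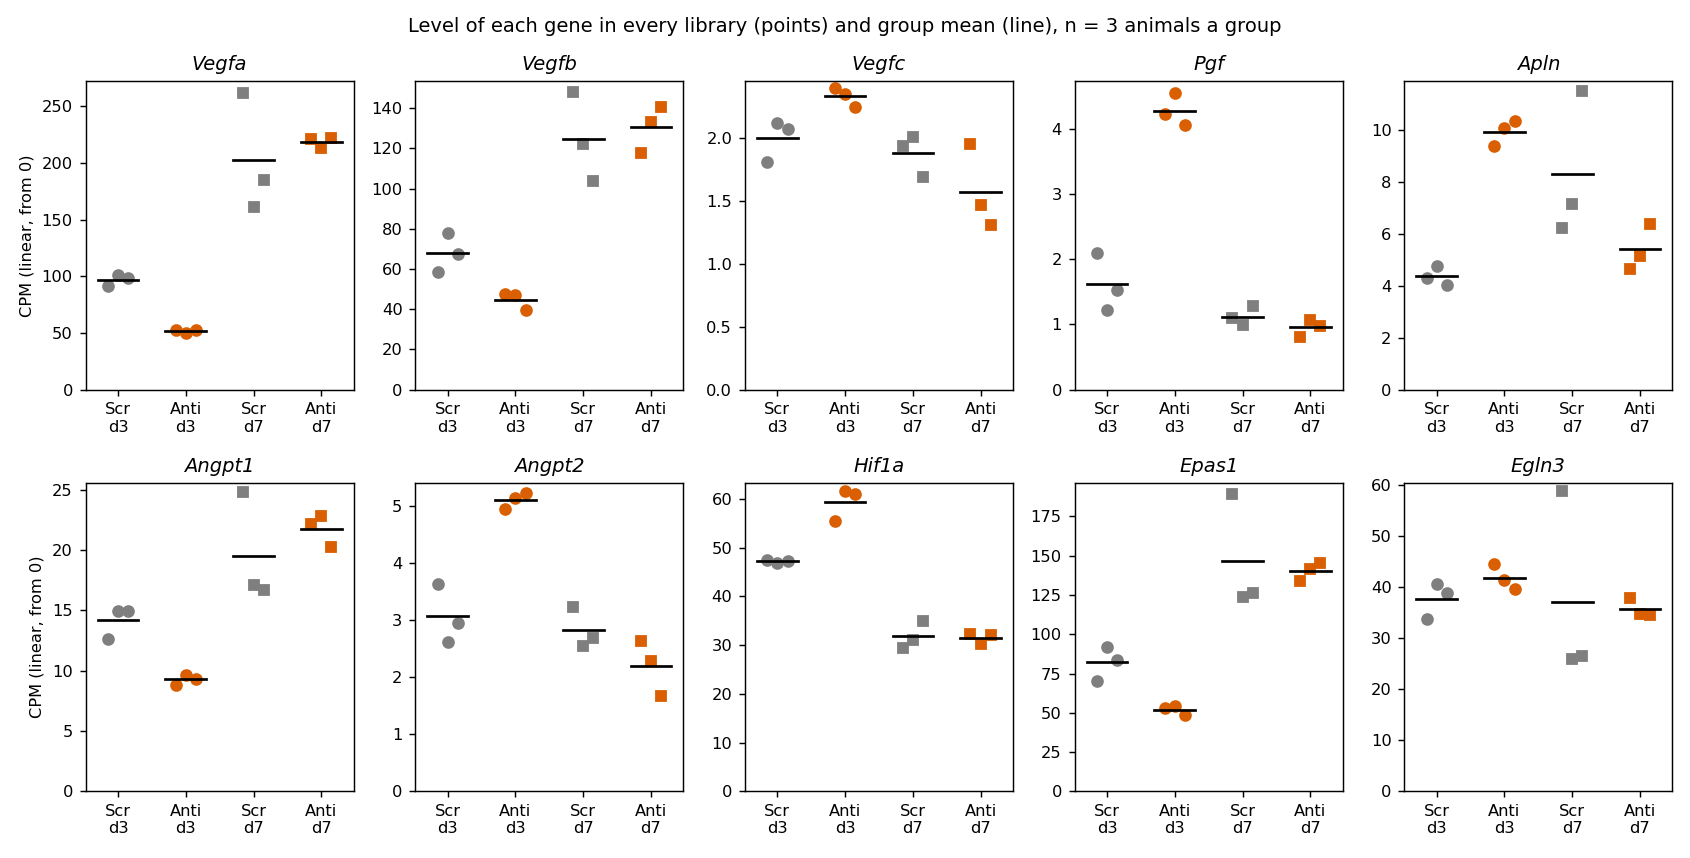
CPM (linear axis from 0) of the 10 genes in each of the 12 libraries, as points, with the group mean as a line; Scr is scrambled, Anti is anti-miR-106b, d3 and d7 are days 3 and 7. At day 3 Vegfa, Vegfb, Angpt1 and Epas1 lie lower and Pgf, Apln, Angpt2 and Hif1a higher with anti-miR-106b. Scrambled day 7 replicate 1 is the highest library of all for Vegfa, Vegfb, Angpt1, Epas1 and Egln3.

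At day 3 the factors divided by direction. With anti-miR-106b, Vegfa, Vegfb, Angpt1 and Epas1 were lower and Pgf, Apln, Angpt2 and Hif1a higher than in scrambled muscle. Folds ran from 1.26 for Hif1a to 2.71 for Pgf. Of the 10 genes 8 passed (4 higher and 4 lower), where 35.7% of all 14063 tested genes passed, 16.3% higher and 19.4% lower. The 2 arms did not overlap in 9 of the 10 genes, against 60.5% of all genes. The 10 genes were chosen with earlier results of these data known. Shares of all genes, here and below, are therefore a scale and test no excess. Calls are from limma with Benjamini-Hochberg adjustment over all tested genes at 0.05. With 3 animals in each arm, the smallest p that exact permutation could give is 0.1.

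Vegfa, the main mitogen of endothelial cells (chr17:46016993-46032369, minus strand; gene positions are those of GENCODE M21, GRCm38), was at 91.7, 101 and 98.5 CPM in the scrambled libraries of day 3 and at 52.5, 50.02 and 53.0 CPM in the anti-miR-106b libraries. Every anti-miR-106b library was lower than every scrambled one, and replicates within an arm were close together. The log2 fold change was -0.91 ± 0.13 (SE; limma adjusted p = 2.17e-04), a 1.87-fold lower level. Vegfb (chr19:6982473-6987651, minus strand), a ligand of Flt1 with a weaker effect on vessel growth, was at 58.7, 78.1 and 67.3 CPM in scrambled muscle. In anti-miR-106b muscle it was at 47.5, 47.0 and 39.6 CPM, again without overlap. It fell by 0.60 ± 0.13 on the log2 scale (SE; limma adjusted p = 0.00310).

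The other VEGF family ligands did not fall. Pgf (chr12:85166635-85177790, minus strand), which is scarce in healthy adult tissue, was at 2.10, 1.23 and 1.53 CPM in scrambled and at 4.23, 4.55 and 4.06 CPM in anti-miR-106b libraries. All 3 treated libraries were above the scrambled range, and the log2 fold change was 1.44 ± 0.20 (SE; limma adjusted p = 2.41e-04). Within a library the log2 ratio of Pgf to Vegfa was -5.45, -6.37 and -6.01 in scrambled muscle and -3.63, -3.46 and -3.71 with anti-miR-106b. The ratio was thus higher in each treated library, with Vegfa still the more abundant transcript. Vegfc (chr8:54077606-54187096, plus strand), the lymphatic ligand, was at 1.81, 2.12 and 2.07 CPM against 2.40, 2.34 and 2.25 CPM. Its arms did not overlap, but its log2 fold change of 0.22 ± 0.17 did not pass (SE; limma adjusted p = 0.316, 95% interval -0.14 to 0.59).

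Apelin, a peptide of growing vessels (chrX:48025146-48034853, minus strand), was at 4.31, 4.75 and 4.01 CPM in scrambled muscle and at 9.39, 10.1 and 10.3 CPM with anti-miR-106b. The treated libraries were all above the scrambled ones, a log2 fold change of 1.19 ± 0.19 (SE; limma adjusted p = 4.01e-04). Its receptor Aplnr was at 23.5, 21.5 and 22.9 CPM against 30.1, 28.0 and 27.2 CPM. Ligand and receptor were thus both higher at day 3, the receptor by 0.33 ± 0.06 on the log2 scale (limma adjusted p = 0.00172). For the receptors of the other ligands, the log2 fold changes were -0.28 ± 0.11 for Kdr, -0.24 ± 0.14 for Flt1 and -0.19 ± 0.09 for Tek, and none of the 3 passed (limma adjusted p = 0.0533, 0.193 and 0.118).

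The angiopoietins went in opposite directions. Angpt1 (chr15:42424723-42676977, minus strand) was at 12.6, 14.99 and 14.98 CPM in scrambled and at 8.86, 9.67 and 9.33 CPM in anti-miR-106b libraries, and it fell by 0.61 ± 0.13 on the log2 scale (SE; limma adjusted p = 0.00291). Angpt2 (chr8:18690263-18741562, minus strand) was at 3.64, 2.61 and 2.94 CPM and at 4.93, 5.13 and 5.22 CPM. It rose by 0.75 ± 0.18 (SE; limma adjusted p = 0.00518), and neither gene's arms overlapped. The log2 ratio of Angpt2 to Angpt1 within a library went from -1.80, -2.52 and -2.35 in scrambled muscle to -0.84, -0.91 and -0.84 with anti-miR-106b. The mean ratio was 0.214 and 0.549, so Angpt1 had the higher CPM in every library. Part of Angpt1's exons, 737 bases, lies opposite the gene Gm17473, and since strand-specific counting is not stated the reads of that stretch cannot be told apart. Gm17473 had a mean log2 CPM of -1.82 over all libraries, and the lowest group mean of Angpt1 was 3.21.

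The alpha subunits of the hypoxia-inducible factors also moved apart. Hif1a (chr12:73901375-73947530, plus strand) was at 47.6, 46.9 and 47.2 CPM in scrambled and at 55.6, 61.7 and 61.1 CPM in anti-miR-106b libraries. It rose by 0.33 ± 0.07 on the log2 scale (SE; limma adjusted p = 0.00331), the smallest of the 8 changes. Epas1 (chr17:86753700-86833410, plus strand), known from endothelium and from oxidative fibres, was at 70.4, 92.2 and 83.6 CPM against 53.2, 54.5 and 48.6 CPM. It fell by 0.65 ± 0.14 (SE; limma adjusted p = 0.00288). Part of Hif1a's exons is shared with Gm49321 (148 bases) and part lies opposite Gm15283 (330 bases), so reads there cannot be assigned. Gm15283 had a mean log2 CPM of -2.26 over all libraries, and the lowest group mean of Hif1a was 4.98. No level was available for Gm49321. The arms overlapped for neither Hif1a nor Epas1, and their log2 ratio in CPM rose, from -0.57, -0.98 and -0.82 to 0.06, 0.18 and 0.33. Its sign depends on gene length. Per kilobase, anti-miR-106b day 3 replicate 1 had Hif1a at 9.42 and Epas1 at 9.52. Egln3 (chr12:54178981-54203860, minus strand) was at 33.7, 40.5 and 38.8 CPM against 44.5, 41.3 and 39.6 CPM. Its arms overlapped and its log2 fold change was 0.15 ± 0.22 (SE; limma adjusted p = 0.627). Of the genes with a 7-base seed match, Vegfa and Epas1 were lower, Hif1a was higher and Egln3 did not pass.

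**Figure D2:**
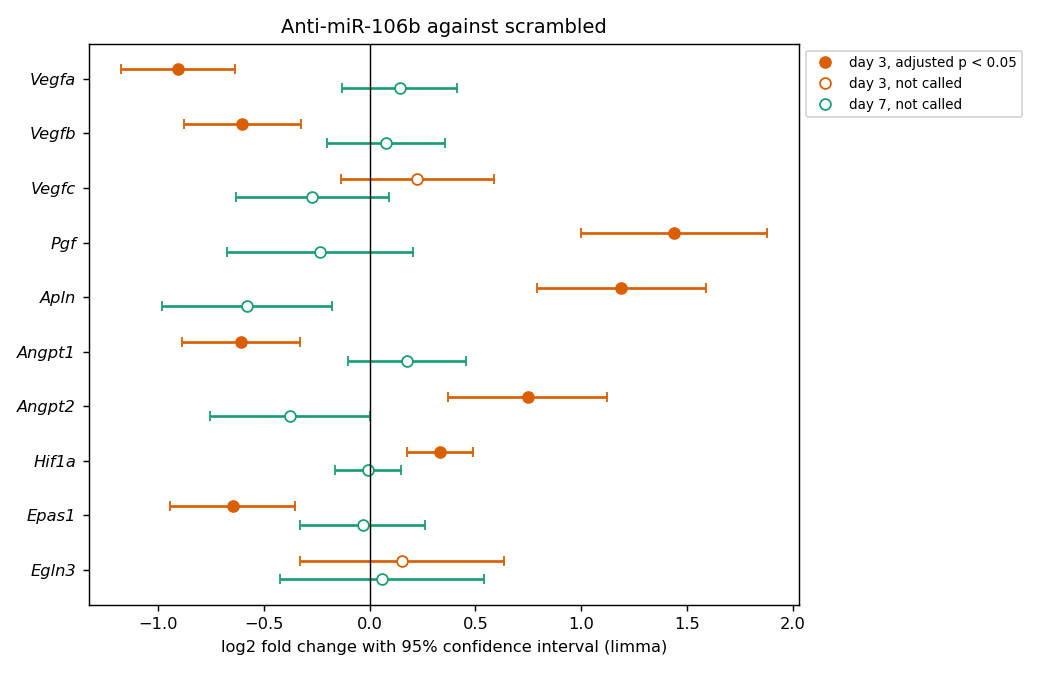
Log2 fold change of anti-miR-106b against scrambled for each gene, with its 95% confidence interval from limma, at day 3 (orange) and day 7 (green); filled points passed at adjusted p below 0.05. At day 3 8 of 10 points are filled, on both sides of 0, and at day 7 none is.

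Cell type markers differed between the day 3 arms beside these genes. Of all tested genes 35.7% passed there. All 12 markers of mature fibres were lower with anti-miR-106b (median log2 fold change -0.71; after quantile normalization 5 of 12 passed, median -0.12). Their summed level was 81964 to 98454 CPM in scrambled and 52918 to 58194 CPM in treated libraries. Vegfa, Vegfb, Angpt1 and Epas1 had the same direction, and the part of these markers in their fall was not tested. Of 12 endothelial markers 7 were higher and none lower (median 0.26, summed 250.2 to 271 and 301 to 331 CPM). The endothelial receptors Kdr, Flt1 and Tek, which are not on that list, had log2 fold changes of -0.28, -0.24 and -0.19 and did not pass. Macrophage markers had 6 of 10 higher and none lower (median 0.58, 3038 to 3111 and 4252 to 4643 CPM), and myoblast and satellite cell markers 5 of 8 higher and none lower (median 0.60, 1543 to 1960.4 and 2678 to 2958 CPM). Mural cell markers had 4 of 10 higher and 1 lower (median 0.21), fibroblast and fibro-adipogenic markers 1 of 8 higher and none lower (median -0.14), and none of 4 tested neutrophil markers passed (median 0.71). No marker on these lists was without reads in a whole group. The part of the endothelial, macrophage or myoblast markers in the rise of Pgf, Apln, Angpt2 and Hif1a was not tested either. In whole muscle, fewer cells of a type and less RNA per cell cannot be told apart.

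The 8 calls of day 3 held in each of the 12 fits that left out a library and in the other 10 settings tried. Adding 5 CPM before the logarithm lowered the changes of the scarce genes by more than 1.5 times, to 0.49 for Pgf, 0.67 for Apln and 0.33 for Angpt2.

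At day 7 no gene of the 10 passed between the arms in limma, where 0.064% of all genes passed. At an unadjusted p below 0.05 it was 1 of 10, Apln, against 11.2% of all genes. The arms overlapped in all 10, against 10.9% of all genes that did not overlap. Vegfa was at 262, 162 and 185 CPM in scrambled and at 222, 213 and 222 CPM in anti-miR-106b libraries, a log2 fold change of 0.14 with a 95% interval of -0.13 to 0.41. The scrambled animals were spread widely while the treated ones were close together. Vegfb was at 148, 122 and 104 CPM against 118, 133 and 141 CPM (0.08, interval -0.20 to 0.36). Pgf was at 1.09, 0.991 and 1.28 CPM against 0.815, 1.07 and 0.972 CPM (-0.23, interval -0.67 to 0.21). Both were mixed between the arms.

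Apelin had the lowest p of the 10 at day 7. It was at 6.22, 7.15 and 11.5 CPM in scrambled and at 4.66, 5.13 and 6.40 CPM in anti-miR-106b libraries, a log2 fold change of -0.58 ± 0.19 (SE; limma adjusted p = 0.258, 95% interval -0.98 to -0.18). Aplnr was at 36.0, 37.7 and 38.3 CPM against 25.0, 24.7 and 25.5 CPM, without overlap, and was 0.57 ± 0.06 lower on the log2 scale (fold change -0.57, limma adjusted p = 0.00651). None of the 12 endothelial markers passed at day 7, and 11 did at an unadjusted p below 0.05 (median -0.39). Under total-count scaling 2 of the 12 passed as lower (median -0.42), and after quantile normalization 2 did (median -0.35). The 12 markers summed to 362 to 382 CPM in scrambled and 283 to 307 CPM in treated libraries. Their part in the lower Aplnr was not tested. For Angpt2, at 3.23, 2.54 and 2.68 CPM against 2.63, 2.28 and 1.67 CPM, the log2 fold change was -0.38 with an interval of -0.75 to 0.00030. Angpt1 was at 24.8, 17.1 and 16.7 CPM against 22.1, 22.8 and 20.2 CPM (0.18, interval -0.10 to 0.46), and Vegfc at 1.94, 2.00 and 1.69 CPM against 1.95, 1.47 and 1.30 CPM (-0.27, interval -0.63 to 0.09). At this day, then, the ratio of Angpt2 to Angpt1 was the lower in the treated arm, at a log2 value of -2.78 ± 0.15 in scrambled and -3.33 ± 0.26 in anti-miR-106b libraries (SD, n = 3), which did not overlap.

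The hypoxia factors had means close to each other at day 7. Hif1a was at 29.3, 31.1 and 35.0 CPM in scrambled and at 32.2, 30.3 and 32.1 CPM in treated libraries (log2 fold change -0.0087, interval -0.16 to 0.15). Epas1 was at 189, 124 and 126 CPM against 134, 142 and 145 CPM (-0.03, interval -0.33 to 0.26). Egln3 was at 58.8, 26.0 and 26.5 CPM against 37.9, 34.7 and 34.6 CPM (0.06, interval -0.42 to 0.54). Scrambled day 7 replicate 1 had the highest Vegfa, Vegfb, Angpt1, Epas1 and Egln3 of its group. Without that library 3 of the 10 genes passed in limma, Vegfa (log2 fold change 0.34, adjusted p = 0.0241), Egln3 (0.45, 0.0181) and Apln (-0.76, 0.0393), where 3.25% of all genes passed. Without scrambled day 7 replicate 3, the highest library for Apln in its group, the log2 fold change of Apln was -0.32 (adjusted p = 0.484).

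The effect of the inhibitor changed between the days for 8 of the 10 genes, the same 8 that passed at day 3, where 22.3% of all tested genes passed this test (13.2% higher and 9.07% lower). The effect is the signed log2 fold change of anti-miR-106b against scrambled. Of the 10 genes 4 had a higher and 4 a lower effect at day 7, where none of the 10 passed between the arms. Among markers, 8 of 12 of mature fibres had a higher effect at day 7 (median 0.65; after quantile normalization 2 of 12, median 0.09) and all 12 endothelial markers a lower one (median -0.59), and their part was not tested. The change, the effect at day 7 minus that at day 3, was -1.77 ± 0.26 for Apln and -1.67 ± 0.29 for Pgf (SE; limma adjusted p = 0.00102 and 0.00223). It was 1.05 ± 0.18 for Vegfa (adjusted p = 0.00203) and -1.12 ± 0.25 for Angpt2 (0.00716). For Angpt1 it was 0.79 ± 0.18 and for Vegfb 0.68 ± 0.18 (adjusted p = 0.00947 and 0.0180). Epas1 (0.61 ± 0.19) and Hif1a (-0.34 ± 0.10) had adjusted p values of 0.0375 and 0.0295. The count was 5 without scrambled day 3 replicate 2, where Vegfb, Epas1 and Hif1a no longer passed (adjusted p = 0.0521, 0.09997 and 0.0673). The call of Epas1 was lost with the replicate number as a block (adjusted p = 0.0536), under total-count scaling (0.0933) and with a variance prior without trend (0.0729), and that of Hif1a without a filter on low values (0.0544). Leaving out 1 library lost the call of Epas1 in 9 of 12 fits and that of Hif1a in 6.

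From day 3 to day 7 Vegfa, Vegfb, Angpt1 and Epas1 rose and Hif1a and Pgf fell in each arm. In scrambled muscle 7 of the 10 genes passed, 5 higher and 2 lower, against 68.2% of all genes (32.9% higher and 35.3% lower). In the anti-miR-106b arm 9 passed, 4 higher and 5 lower, against 78.7% (37.9% higher and 40.8% lower). The days did not overlap in 6 of the 10 genes in the scrambled arm, against 72.4% of all genes, and in all 10 in the treated arm, against 81.1%. These shares are not far from those of all genes. Fibre markers (12 of 12, medians 0.87 and 1.64) were higher and macrophage markers (10 of 10) lower at day 7 in the scrambled and treated arms, and their part was not tested. Endothelial markers had 10 of 12 higher and none lower in scrambled muscle (median 0.66). In treated muscle 2 were higher and 3 lower (median 0.04), and the part of these markers was not tested either. After quantile normalization 4 fibre markers were higher in scrambled muscle (median 0.11), and 5 were higher and 2 lower in treated muscle (median 0.14). Vegfa rose by 1.03 ± 0.13 on the log2 scale in scrambled and by 2.08 ± 0.13 in anti-miR-106b muscle, and Vegfb by 0.87 ± 0.13 and 1.55 ± 0.13 (SE). Epas1 rose by 0.82 ± 0.14 and 1.43 ± 0.14, and Angpt1 by 0.44 ± 0.13 and 1.23 ± 0.13. Hif1a fell by 0.57 ± 0.07 and 0.91 ± 0.07. Limma adjusted p values of these changes ran from 3.53e-09 (Vegfa, anti-miR-106b arm) to 0.00847 (Angpt1, scrambled arm).

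Among the 10 genes apelin was the one whose direction over time differed between the arms. It rose from 4.36 ± 0.371 to 8.29 ± 2.82 CPM in scrambled muscle (SD, n = 3; log2 fold change 0.88 ± 0.19 SE, limma adjusted p = 8.63e-04). It fell from 9.93 ± 0.485 to 5.40 ± 0.897 CPM in the anti-miR-106b arm (-0.89 ± 0.19, adjusted p = 5.43e-04). The receptor Aplnr also differed in direction, with 0.72 ± 0.06 in scrambled and -0.18 ± 0.06 in treated muscle (limma adjusted p = 4.43e-07 and 0.0192). Kdr, Flt1 and Tek rose in both arms, by 0.80 ± 0.11, 0.71 ± 0.14 and 0.50 ± 0.09 in treated muscle. Angpt2 had -0.12 ± 0.18 in scrambled muscle, which did not pass, and fell by 1.24 ± 0.18 in the treated arm (adjusted p = 0.572 and 1.61e-05). Pgf fell by 2.17 ± 0.20 in the treated arm (adjusted p = 2.57e-07). In scrambled muscle its change of -0.50 ± 0.20 was at the edge of the threshold (adjusted p = 0.0418) and was lost in 11 settings, for example without a filter on low values (0.0721), with the replicate block (0.0583) and without scrambled day 3 replicate 1 (0.217, log2 fold change -0.30). Vegfc had -0.09 ± 0.17 in scrambled and fell by 0.59 ± 0.17 in treated muscle (adjusted p = 0.653 and 0.00560). Under total-count scaling Angpt2 (-0.52, adjusted p = 0.0239) and Vegfc (-0.50, adjusted p = 0.0175) passed in scrambled muscle too. After quantile normalization Vegfc no longer passed in treated muscle (-0.08, adjusted p = 0.683). Egln3 had -0.13 ± 0.22 and -0.23 ± 0.22 and passed in neither arm, but without scrambled day 7 replicate 1 it passed in both, at -0.52 and -0.23 (adjusted p = 1.37e-04 and 0.0153). Egln3 also passed in both arms under total-count scaling, at -0.54 and -0.85 (adjusted p = 0.0358 and 0.00207), and in scrambled muscle with library quality weights (-0.43, adjusted p = 0.00567). The rise of Angpt1 in scrambled muscle was 0.03 under total-count scaling and did not pass (adjusted p = 0.830).

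**Figure D3:**
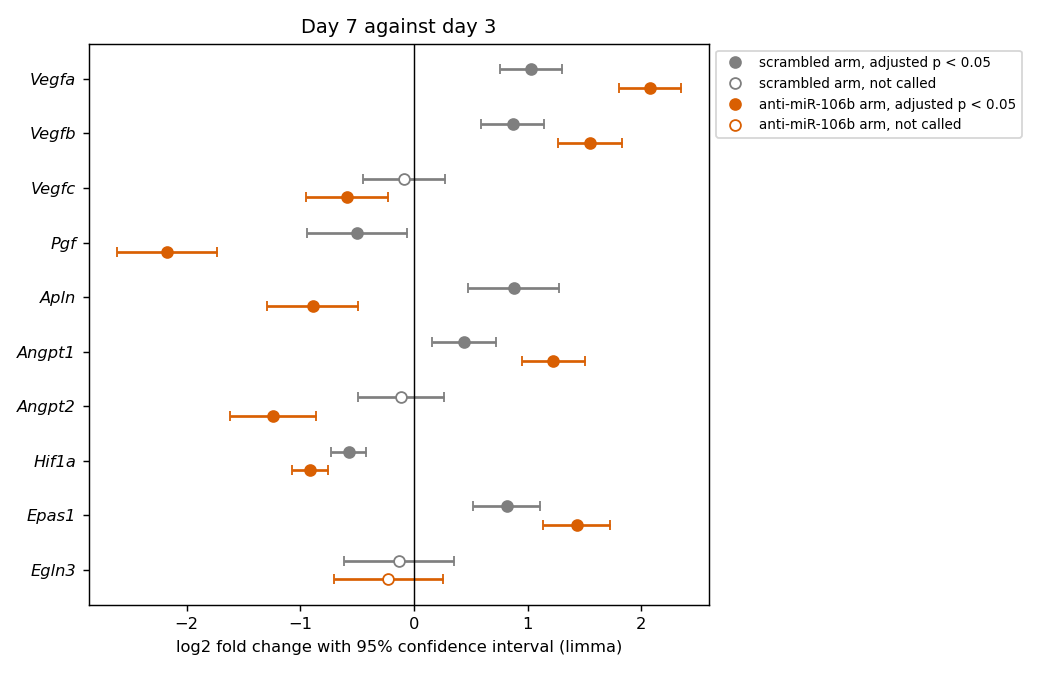
Log2 fold change of day 7 against day 3 for each gene, with its 95% confidence interval from limma, in the scrambled (grey) and anti-miR-106b (orange) arms; filled points passed at adjusted p below 0.05. Apln lies above 0 in the scrambled arm (0.88) and below it in the anti-miR-106b arm (-0.89), and Vegfa above 0 in both (1.03 and 2.08).

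Ratios within a library do not change when each library is scaled by a factor of its own. Quantile normalization is not such a scaling, and the ratios were not computed under it. The Angpt2 to Angpt1 ratio was highest in anti-miR-106b day 3 (mean log2 value -0.87 ± 0.04, SD, n = 3), followed by scrambled day 3 (-2.22 ± 0.38). The Pgf to Vegfa ratio had means of -5.94 ± 0.46 in scrambled and -3.60 ± 0.13 in treated muscle at day 3, and of -7.48 ± 0.38 and -7.85 ± 0.23 at day 7. For Hif1a to Epas1 they were -0.79 ± 0.21 and 0.19 ± 0.13 at day 3, and -2.18 ± 0.45 and -2.15 ± 0.09 at day 7. In these 3 ratios, each of a gene that was higher over one that was lower at day 3, the anti-miR-106b libraries of day 3 stood above every other library. The log2 ratio of Vegfa to Vegfb, both lower at day 3, had its lowest mean there, at 0.22 ± 0.18 against 0.52 ± 0.14 in scrambled muscle, and 0.69 ± 0.25 and 0.75 ± 0.14 in scrambled and treated muscle at day 7.

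**Figure D4:**
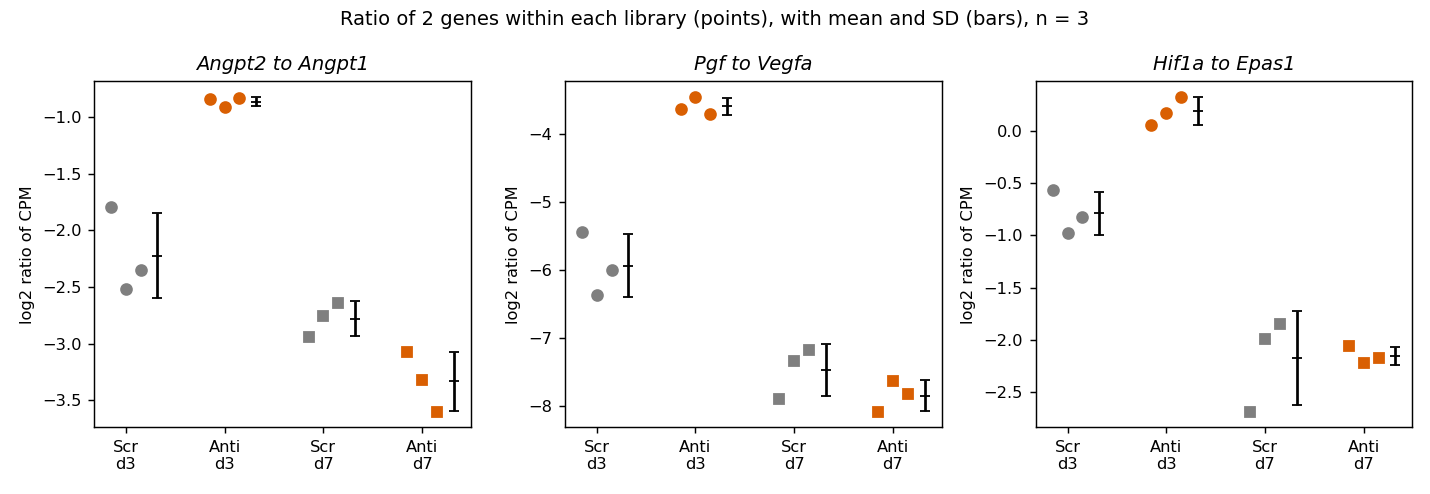
Log2 ratio of the CPM of 2 genes within each of the 12 libraries (points), with the group mean and SD (bars, n = 3), for Angpt2 to Angpt1, Pgf to Vegfa and Hif1a to Epas1. The 3 anti-miR-106b libraries of day 3 are the highest in each panel, between -0.91 and -0.84 in the first.

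The wider pathway was read from lists of genes around these factors. Between the arms at day 3, 35.7% of all tested genes passed. Glycolytic targets of hypoxia-inducible factors had 8 of 12 lower and 3 higher with anti-miR-106b at day 3 (median log2 fold change -0.54, against 0.01 over all tested genes). Among the lower ones were the kinase Pgk1 (-0.52 ± 0.06), lactate dehydrogenase Ldha (-0.73 ± 0.10) and the isomerase Tpi1 (-0.56 ± 0.09), which the mature fibre also makes at a high level. The other targets were divided, with 3 of 16 higher and 4 lower (median 0.17). The haem oxygenase Hmox1 (1.12 ± 0.14) rose, and the lipoprotein receptor Vldlr fell (fold change -0.98 ± 0.11). Limma adjusted p values of these named glycolytic and other targets were 3.69e-04 (Tpi1) or lower. In the oxygen-sensing list 4 of 9 tested genes were lower and none higher (median -0.17). The asparagine hydroxylase Hif1an had -0.49 ± 0.07, the prolyl hydroxylase Egln1, which marks the alpha subunits for degradation, -0.73 ± 0.14 and the ubiquitin ligase scaffold Cul2 -0.29 ± 0.06 (SE). Under total-count scaling that list had 3 higher and 2 lower (median 0.02), and the other targets had 8 higher and 2 lower (median 0.36).

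At day 7 none of the glycolytic, other target or oxygen-sensing genes passed between the arms in limma. At an unadjusted p below 0.05 it was 2 of 12, 5 of 16 and 1 of 9, against 11.2% of all genes. From day 3 to day 7 in scrambled muscle, 8 of 12 glycolytic targets were higher and 3 lower (median 0.67). Pgk1 (0.65 ± 0.06) and Tpi1 (0.74 ± 0.09) rose and the mutase Pgam1 fell (fold change -1.13 ± 0.13). Of the other targets 4 of 16 were higher and 5 lower (median -0.05), with Vldlr (1.03 ± 0.11) and the mitochondrial protein Higd1a (0.69 ± 0.07) higher and Hmox1 lower (-1.60 ± 0.14). Oxygen-sensing genes had 6 of 9 higher and 1 lower (median 0.19), among them Hif1an (0.68 ± 0.07), Cul2 (0.49 ± 0.06) and Egln1 (1.02 ± 0.14). All 8 receptors of vascular ligands passed over time in scrambled muscle, 6 higher and 2 lower (median 0.55), against the 68.2% of all genes. Examples are Aplnr (0.72 ± 0.06), Tie1 (0.82 ± 0.08) and the main VEGF receptor Kdr (0.83 ± 0.11), and Flt1 (0.64 ± 0.14) and Tek (0.46 ± 0.09) rose too. Beside them 10 of 12 endothelial markers were higher over time in scrambled muscle and none lower (median 0.66). Under total-count scaling 6 of these markers were higher and 2 lower (median 0.26). The part of the endothelial markers in the rise of the receptors was not tested. Under total-count scaling 3 receptors were higher and 2 lower over time (median 0.14), the other targets had 4 higher and 9 lower (median -0.46), and the oxygen-sensing list turned to 2 higher and 5 lower (median -0.22). After quantile normalization the glycolytic list had 4 higher and 3 lower (median 0.01). Between the arms at day 3, 2 of the 8 receptors were higher and none lower (median 0.13), Aplnr and the co-receptor Nrp2 (0.48 ± 0.07), and at day 7 Aplnr alone was lower. At day 3 total-count scaling gave 5 receptors higher and none lower (median 0.32), and quantile normalization 2 higher and 2 lower (median 0.13).

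The genes whose levels ran most closely with these factors were picked by Pearson's r of log2 CPM over the 12 libraries. The pick was made among tested genes, without symbols made of Gm and digits or ending in Rik. These libraries fall into 2 days and share scaling, so r is given only as a measure of likeness. Vegfa was closest to Kif1b (0.997), Vegfb to Ndufa8 (0.998) and Epas1 to Sun2 (0.995). Angpt1 was closest to Asb11 (0.991), Hif1a to Twf1 (0.995) and Angpt2 to Pdgfrb (0.954). Pgf was closest to Dio3os (0.984) and elastin, Eln (0.982). Apelin and Egln3 had no neighbour of that closeness: the nearest to Apln were Hilpda (0.884) and Icam2 (0.849), to Egln3 Plin3 (0.872), and to Vegfc Slc43a3 (0.936).

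Start site windows were available for 7 of the 10 genes, in 9 windows of 300 bases (RefSeq, GRCm38.p6, 250 bases before to 50 after a start), but not for Angpt1, Angpt2 and Epas1. They were searched on both strands for ACGTG and GCGTG, the cores that hypoxia-inducible factors can bind. One or the other occurred in 5 of the 9 windows, 1 each of Vegfa, Vegfb, Pgf, Hif1a and Egln3, and in 43.8% of 32851 windows of all genes (19.6% for ACGTG and 32.4% for GCGTG). The window at the 5′ end of the Vegfa gene held neither motif, and its matches lie in a window at a start inside the gene. The second window of Pgf held neither motif as well. The windows of Hif1a (chr12:73907617-73907916, plus strand) and Vegfb (chr19:6987602-6987901, minus strand) are shown as an example of each direction at day 3, with the matches in capitals (a match on the opposite strand reads CACGT or CACGC).
Hif1a: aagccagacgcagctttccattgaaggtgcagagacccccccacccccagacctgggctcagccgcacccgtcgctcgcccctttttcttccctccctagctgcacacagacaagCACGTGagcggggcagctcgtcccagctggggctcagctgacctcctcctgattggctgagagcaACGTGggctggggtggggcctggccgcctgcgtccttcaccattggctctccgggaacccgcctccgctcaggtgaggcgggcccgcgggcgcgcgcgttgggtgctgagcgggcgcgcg
Vegfb: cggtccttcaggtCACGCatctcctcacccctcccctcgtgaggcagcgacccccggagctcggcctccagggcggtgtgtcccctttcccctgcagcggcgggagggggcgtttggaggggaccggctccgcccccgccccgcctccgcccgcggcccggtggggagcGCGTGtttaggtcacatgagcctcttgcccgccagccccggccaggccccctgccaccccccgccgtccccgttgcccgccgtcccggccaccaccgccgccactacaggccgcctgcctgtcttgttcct
Hif1a held ACGTG 3 times, 2 of them as the overlapping strands of 1 palindrome, and Vegfb held GCGTG 2 times. Matches occurred in genes that rose at day 3 (Pgf, Hif1a), that fell (Vegfa, Vegfb) and in Egln3, which did not pass. The windows of Apln and Vegfc held neither motif.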

How the data were processed

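The deposited table holds log2 CPM per gene symbol for the 12 libraries; its values show library sizes scaled by the authors and a small prior count. The build was mm10, and the tools were limma 3.34.9, edgeR 3.20.9, featureCounts, STAR, Trim Galore 0.4.3.1 and FastQC 0.72, as the submitters' processing notes list them. Their order, settings and strand are not given in the sources used here. Values lie on equal steps, from which reads per gene were recovered, whole within 0.01. Genes with at least 1 CPM in at least 3 libraries were tested (14063, all 10 described genes among them) with limma 3.58.1 in R 4.3.3. The fit had a mean per group and a prior variance following expression (8 residual and 5.59 prior degrees of freedom). Tests were two-sided, with Benjamini-Hochberg adjustment per comparison and a threshold of 0.05. Simulated data were used to check the script. Replicate numbers were not treated as pairs. Alternatives changed the filter, the added CPM, the scaling, the variance model, the groups fitted and the libraries kept. The 10 genes and the 12 lists around them were chosen with earlier results of these data known. Named were all 10, the 3 tested genes most correlated with each (Gm and Rik symbols left out) as examples, receptors, and up to 3 list genes with the smallest p. One list gene that this rule picks is not reported here.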

Additional observations from a re-analysis of the deposited data

Results flagged for a closer look

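The effect of anti-miR-106b differed between day 3 and day 7 for 8 of the 10 genes, by the interaction term in limma. The signed log2 fold change was higher at day 7 than at day 3 for Vegfa (difference 1.05), Angpt1 (0.79), Vegfb (0.68) and Epas1 (0.61). These 4 genes were lower with anti-miR-106b at day 3. It was lower at day 7 for Apln (-1.77), Pgf (-1.67), Angpt2 (-1.12) and Hif1a (-0.34), which were higher with anti-miR-106b at day 3. No gene of the 10 passed between the arms at day 7. Of all tested genes 22.3% differed by this test. Without scrambled day 3 replicate 2 the count of these genes was 5. Leaving out 1 library took the limma adjusted p of Epas1, Hif1a and Vegfb up to 0.09997, 0.0792 and 0.0521.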

How the results depend on the processing

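Across up to 10 other settings and 12 fits leaving out a library, the number of these genes that passed stayed within 1.5 times of the reported one in every comparison, apart from 2 fits. Leaving out 1 library gave 8 to 8 genes for the arms at day 3, 0 to 3 at day 7 (3 without scrambled day 7 replicate 1), 6 to 7 and 9 to 10 for the days in the scrambled and treated arms, and 5 to 9 for the change between days (5 without scrambled day 3 replicate 2). Signs turned only for changes that had not passed. At day 7 library weights gave 0.0029 for Hif1a and 0.11 for Epas1, and for the change between days 0.18 for Egln3. Quantile normalization gave 0.31 for Vegfc and 0.27 for Angpt2 between days in scrambled muscle. The cause was not tested. Leaving out a library gave ranges across 0 at day 7 for Vegfa (-0.0069 to 0.34), Vegfb (-0.047 to 0.21), Hif1a (-0.065 to 0.063), Epas1 (-0.14 to 0.17) and Egln3 (-0.14 to 0.45). It did so between days in scrambled muscle for Angpt2 (-0.22 to 0.014) and Egln3 (-0.52 to 0.071), and for the change of Egln3 (-0.30 to 0.29). Same-numbered libraries of a day had residual correlations of -0.04 to 0.14. These cannot settle whether the numbers mark pairs, which the labels do not say. The replicate block left 8, 0, 6, 9 and 7 genes in the 5 comparisons. It lost the calls of Pgf between days in scrambled muscle and of Epas1 for the change. Under total-count scaling 5158 genes were higher and 1389 lower at day 3, against 2296 and 2726, and the 8 calls kept their signs. Depth limits Pgf and Vegfc most, whose lowest libraries held 25 and 39 reads.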

Other observations

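Other secreted factors that act on vessels were measured beside the 10 genes. Of all tested genes 35.7% passed between the arms at day 3. With anti-miR-106b, 3 of 10 of these factors were higher and 3 lower in limma (median log2 fold change -0.22), and 3 and 1 under total-count scaling (median -0.03). The fibroblast growth factors Fgf1 (-0.71 ± 0.17 SE) and Fgf2 (-0.38 ± 0.11) were lower, and Angptl4, a lipase inhibitor, was higher (0.78 ± 0.22), with adjusted p values of 0.00509, 0.0161 and 0.0163. None passed at day 7. From day 3 to day 7 in scrambled muscle 68.2% of all genes passed. Of these factors 4 of 10 were higher and 3 lower (median -0.02), and 2 and 6 under total-count scaling (median -0.43). The Notch ligand Dll4 rose (0.91 ± 0.12), and Angptl4 (-2.05 ± 0.22) and hepatocyte growth factor Hgf (-3.41 ± 0.34) fell, the latter from 2.66 ± 0.644 to 0.261 ± 0.105 CPM (SD, n = 3).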
